A study of Mus musculus with 672 samples.

Results

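The cells described here are E13.25 tip progenitor cells, 50 of the 340 E13.25 cells that passed the quality filters and of 601 such cells in the whole series. They were chosen by read level alone. A cell belonged to the group with at least 1000 CPM of Cpa1 (counts scaled to the same total of gene reads in each cell), under 300 CPM of Col3a1 and under 30 CPM of Neurod1. Cpa1 encodes carboxypeptidase A1, a digestive enzyme whose gene marks the tips of the developing pancreatic epithelium, Col3a1 encodes a mesenchymal collagen, and Neurod1 encodes a transcription factor of endocrine cells. The series holds 672 sorted single cells from the pancreas of C57BL/6 mouse embryos, sequenced over the full length of the transcripts. At E13.25 the labels name 4 plates of 96 wells, pancreas 1 to 4, called plates 1 to 4 here, and the cell titles of plate 4 carry a mouse number that the others lack. At E15.25 they name 3 plates from 2 buds, called tip 1, tip 2 and trunk 2. No treatment, transgene or genetic change is named. Cells were sorted by flow cytometry after antibody staining, and the antibodies and gates are not given in the sources used here. A region is named for the E15.25 plates and not for the E13.25 plates, so age and the region sampled cannot be fully told apart. For the E15.25 cells the dissection protocol names E13.25 embryos; their age label was followed here. The labels number the E13.25 plates by pancreas but do not state that plates come from separate embryos. The p-values here thus cover plate-to-plate spread only, and that spread can be technical. Where a comparison gives a bracketed number before an adjusted p alone, the number is the log2 difference.

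The pancreatic epithelium branches so that its tips and its central trunk take different fates. Tip cells at first give rise to all epithelial lineages and later become acinar cells, which make digestive enzymes, while trunk cells give rise to duct and endocrine cells. The trimeric PTF1 complex, in which the basic helix-loop-helix protein Ptf1a binds DNA together with a common E protein and Rbpj or its acinar form Rbpjl, drives tip identity and then the enzyme genes. Sox9 and Nkx6-1 are factors of the multipotent epithelium that are later held in the trunk.

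The E13.25 plates held 11, 6, 18 and 15 tip cells, which was 12.5%, 7.50%, 20.9% and 17.4% of the kept cells of plates 1 to 4. The tip cells had between 174538 and 10611746 reads on genes, with a median of 1726800, and a median of 9650 genes with a read. The other 290 cells had a median of 8286 genes. Summed over its tip cells, a plate held 21395256, 14261795, 49664690 and 24804360 reads. No 2 kept cells had identical counts. Reads carried no molecular identifiers, so counting intervals cover counting error only. The 3 members closest to the Cpa1 limit stood at 1063, 1081 and 1221 CPM, and the 3 closest cells outside it at 915, 718 and 709 CPM. Of 54 cells over the limit, 3 were left out by Col3a1 (1412, 3732 and 6919.6 CPM) and 1 by Neurod1 (52.5 CPM). The highest member had 29.3 CPM of Col3a1 and 0.776 CPM of Neurod1.

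The label was checked against the other markers of pancreatic tips. Rbpjl reached 50 CPM in 45 of the 50 cells (10 of 11, 6 of 6, 17 of 18 and 12 of 15 in plates 1 to 4), Ctrb1 in 44, and Ptf1a and the nuclear receptor gene Nr5a2 in 35 each. Ptf1a, Rbpjl, Nr5a2 and Ctrb1 together reached it in 24 cells, and neither Ptf1a, Rbpjl nor Ctrb1 did in 2. Among the 290 other cells Ptf1a reached 50 CPM in 3 and Rbpjl in 4. With every cell thinned to 100000 reads, at least 5 reads of Rbpjl were found in 90% of tip cells. The share was 0% in 158 cells with at least 300 CPM of Col3a1 and under 1000 CPM of Cpa1. Their median depth was 1197540 reads. Without thinning, at least 1 read of Rbpjl was present in 96% of tip cells and 40.5% of the 158. The limit on Cpa1 kept 3 cells with high Col3a1 out of the 158, and 1 of them had 130 CPM of Rbpjl. The name tip progenitor is used for a set in which most, not all, cells carried the tip factors, and 5 members had under 50 CPM of Rbpjl with Cpa1 between 1676 and 2091 CPM. Markers in these 5 cells went against the name. Ctrb1 was at most 124 CPM and Nkx6-1 was 120 to 837 CPM. Ptf1a was at 0 CPM in all but 1 (71.9 CPM), and the trunk gene Spp1 was 3835 to 8895 CPM in all but 1 (70.7 CPM). Such markers were not confined to these 5. Over all 50 members Spp1 reached 1000 CPM in 20, and 14 of those had under 1000 CPM of Ctrb1. The median of these 14 was 8.71 CPM for Ptf1a, which goes against the name, and 155 CPM for Rbpjl, which goes with it.

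Promoter sequences are shown for the gene that chose the cells, for Rbpjl and for 3 enzyme genes that were higher in tip cells, because Ptf1a and Rbpjl act on a site made of an E box and a TC box. Each is the 250 bases before the transcription start in RefSeq on GRCm38.p6, 5′ to 3′ along the gene. Capitals mark the E box (CANNTG, a palindrome) and the TC box (TTCCCA or its reverse complement TGGGAA). The windows lie at chr6:30638968-30639217 (plus strand, Cpa1), chr8:111691011-111691260 (minus, Ctrb1), chr19:58728637-58728886 (plus, Pnliprp1), chr15:100687921-100688170 (minus, Cela1) and chr2:164402944-164403193 (plus, Rbpjl).
Cpa1: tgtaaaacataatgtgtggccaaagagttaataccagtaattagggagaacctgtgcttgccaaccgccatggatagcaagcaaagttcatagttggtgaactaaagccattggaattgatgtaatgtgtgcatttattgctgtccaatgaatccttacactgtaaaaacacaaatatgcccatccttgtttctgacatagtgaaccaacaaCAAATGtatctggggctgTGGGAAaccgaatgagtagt
Ctrb1: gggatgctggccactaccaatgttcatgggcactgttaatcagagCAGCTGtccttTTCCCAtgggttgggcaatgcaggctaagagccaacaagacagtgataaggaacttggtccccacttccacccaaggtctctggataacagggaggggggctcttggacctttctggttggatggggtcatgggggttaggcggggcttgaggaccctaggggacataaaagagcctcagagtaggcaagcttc
Pnliprp1: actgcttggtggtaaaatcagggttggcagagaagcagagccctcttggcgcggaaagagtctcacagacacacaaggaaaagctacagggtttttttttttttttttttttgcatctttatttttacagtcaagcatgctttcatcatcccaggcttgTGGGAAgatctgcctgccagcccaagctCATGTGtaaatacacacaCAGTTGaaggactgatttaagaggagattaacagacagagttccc
Cela1: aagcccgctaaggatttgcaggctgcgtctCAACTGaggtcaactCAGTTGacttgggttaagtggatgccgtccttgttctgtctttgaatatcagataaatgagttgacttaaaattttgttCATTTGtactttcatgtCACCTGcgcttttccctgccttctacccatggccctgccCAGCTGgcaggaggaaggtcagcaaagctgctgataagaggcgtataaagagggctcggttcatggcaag
Rbpjl: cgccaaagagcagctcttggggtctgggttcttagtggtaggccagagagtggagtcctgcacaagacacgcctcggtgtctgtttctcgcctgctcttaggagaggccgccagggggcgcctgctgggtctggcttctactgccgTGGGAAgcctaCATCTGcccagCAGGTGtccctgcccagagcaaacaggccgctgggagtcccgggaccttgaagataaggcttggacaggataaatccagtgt
The windows of Cpa1, Ctrb1, Pnliprp1 and Rbpjl each held 1 TC box with an E box at most 30 bases away, and that of Cela1 held 5 E boxes and no TC box. Over all 32851 promoters of the table, 21.6% held a TC box, 66.2% an E box and 5.72% both with at most 30 bases between them, on either strand. Of 10 genes of the enzyme and granule protein lists called higher in the comparison below, 6 were in the table. A TC box with an E box that close was found in 3 of these, Cel, Ctrb1 and Pnliprp1, and Amy2b, Cela1 and Cela3b held no TC box. A match of letters is a description and not a binding site.

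The first comparison set the tip cells of each plate against all other kept cells of that plate, 77, 74, 68 and 71 cells, with the plate as a block. Tip cells had more of 6 early enzymes, of the acinar factors Rbpjl, Gata4, Bhlha15 and Xbp1, and of a group of secretory pathway and ribosome biogenesis genes. In them 13 endocrine, 15 mesenchymal, 9 red cell and 9 immediate early genes were lower. Of 20930 genes tested, 1379 (6.59%) passed a Benjamini-Hochberg adjusted p of 0.05 in edgeR's quasi-likelihood test on reads summed per plate, 388 (1.85%) higher and 991 (4.73%) lower in tip cells. The median log2 difference of all tested genes was -0.48, and tip cells were the higher in every plate for 11.9% of genes and the lower for 26%. The others include by rule the cells with high Col3a1 or Neurod1, so lower mesenchymal and endocrine genes follow in part from the choice of cells, and a level in the others is an average over several cell types.

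Cpa1 itself stood at 10403, 9641, 13227 and 5563 CPM in the tip cells of plates 1 to 4 and at 27.5, 18.3, 119 and 161 CPM in the others (9709 ± 3165 against 81.4 ± 69.9, mean ± SD, n = 4 plates), which chose the cells and was not tested. Of the 11 acinar transcription factors listed, 4 passed the test, each higher. Rbpjl, the acinar partner of Ptf1a (GRCm38 chr2:164403141-164415448), stood at 818, 845, 606 and 562 CPM in tip cells and 0.688, 1.02, 18.4 and 8.55 CPM in the others (log2 difference 7.81, SE 1.26, edgeR adjusted p = 0.0285). Each tip value lay above each value of the other cells, whose highest was that of plate 3. Bhlha15, also called Mist1, which shapes the secretory architecture of acinar cells, had 124, 71.9, 116 and 124 CPM against 0.665, 3.92, 2.24 and 1.87 CPM (log2 difference 5.95, SE 0.67, edgeR adjusted p = 0.0117). Its lowest tip value was that of plate 2, the plate with 6 tip cells, and the groups did not overlap. Xbp1, a regulator of the secretory pathway, had 1179, 1219, 829 and 621 CPM against 238, 302, 138 and 116 CPM (log2 difference 2.42, SE 0.16, edgeR adjusted p = 0.0022). Gata4, a zinc-finger factor of the early pancreas, had 119.7, 142, 99 and 82.2 CPM against 15.5, 3.31, 23.1 and 9.42 CPM (log2 difference 3.42, SE 0.61, edgeR adjusted p = 0.0352). For both genes each tip value lay above each value of the other cells.

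Ptf1a (GRCm38 chr2:19445663-19447501) did not pass. It stood at 128, 294, 146 and 204 CPM in tip cells and 0.149, 0.0352, 16.7 and 0.781 CPM in the others (log2 difference 8.62, SE 1.91, edgeR adjusted p = 0.0582). The tip values exceeded those of the others in all 4 plates, and plate 3 stood apart through its other cells. There, 3 of 68 cells, with Cpa1 of 589, 718 and 915 CPM and so under the limit, held 96.4% of the Ptf1a reads, and the level without them was 0.641 CPM. Nr5a2, a nuclear receptor that drives acinar genes, had 93.5, 96.6, 92.2 and 111 CPM against 13.4, 9.06, 58.6 and 27.4 CPM (log2 difference 2.32, SE 0.50, edgeR adjusted p = 0.0554). Its tip values were close to each other and above each value of the other cells, which reached their highest in plate 3. Of the remaining listed factors Nr0b2 (4.63, edgeR adjusted p = 0.0874), Mecom (1.99, edgeR adjusted p = 0.0601) and Creb3l1 (-2.25, edgeR adjusted p = 0.0504) did not pass either. The median log2 difference of the 11 factors was 2.42.

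Of the 11 early digestive enzyme genes tested, 6 were called higher and the median log2 difference was 7.19. Ctrb1, chymotrypsinogen B, had 6701, 3120.3, 3056 and 7584 CPM in tip cells and 4.66, 0.862, 130.2 and 22.5 CPM in the others (log2 difference 9.16, SE 1.58, edgeR adjusted p = 0.0329). Plate 3 had the highest level among the other cells, and the 3 cells just under the Cpa1 limit held 85% of the Ctrb1 reads there. Pnliprp1, a pancreatic lipase-related protein, had 6741, 4639, 5965 and 3831 CPM against 6.74, 1.36, 97.8 and 51.1 CPM (log2 difference 8.44, SE 1.41, edgeR adjusted p = 0.0302). Clps, the lipase cofactor colipase, had 4228, 2477, 1358 and 4212 CPM against 61.9, 28.3, 152 and 96 CPM (log2 difference 5.43, SE 0.63, edgeR adjusted p = 0.0126). Cel, the bile salt-dependent lipase, had 696, 1008, 674 and 863 CPM against 0.626, 0.281, 21.3 and 4.72 CPM (log2 difference 8.68, SE 1.46, edgeR adjusted p = 0.0306). The tip values of these 3 lipid-digesting genes lay above each value of the other cells. Cela1, an elastase, was also called (1070.0 ± 414 against 9.75 ± 11.1 CPM, n = 4, log2 difference 8.27, SE 1.56, edgeR adjusted p = 0.0401).

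Most later enzyme and granule genes were low or absent, and 9 of the 23 listed had a mean of at least 10 CPM in tip cells. Exceptions included Spink1, given below, and Reg1, with medians over tip cells of 168, 57.6, 69.6 and 72.6 CPM in plates 1 to 4. Of the 23 late enzyme and granule genes listed, 16 could be tested, 4 were higher and 4 (Prss3, Zg16, Gp2 and Aqp8) had no read in any tip cell. Spink1, a trypsin inhibitor, had 441, 274, 169 and 810.2 CPM against 0.485, 0.448, 4.96 and 3.31 CPM (log2 difference 8.20, SE 1.01, edgeR adjusted p = 0.0151). Its tip plates differed among themselves by more than those of Cel and lay above the other cells. The trypsinogen Try5 had 37.4, 0.421, 4.79 and 161 CPM in tip cells (log2 difference 10.39, SE 0.78, edgeR adjusted p = 0.00321), with no read in 37 of the 50 cells and up to 803 CPM in 1. The elastase Cela3b (29.1, 59.7, 1.97 and 10.6 CPM, log2 difference 8.37, edgeR adjusted p = 0.0122) and the amylase Amy2b (3.27, 17.7, 2.76 and 31.6 CPM, log2 difference 10.38, edgeR adjusted p = 0.0214) were called at low levels, while Prss2 at 267, 110.3, 86.2 and 26.5 CPM was not (7.93, edgeR adjusted p = 0.0941). Few cells carried Cela3b and Amy2b, whose medians over tip cells were 0 CPM in each plate. Cela3b reached 50 CPM in 3, 2, 0 and 1 tip cells of plates 1 to 4, and Amy2b in 0, 2, 0 and 2. Reads of trypsinogens, elastases and amylases can be shared among near-identical copies. The median log2 difference of the 16 was 6.84, or 6.45 with the gene at 0 reads in 1 group set to its counting bound. The low-count filter drops genes with few reads in both groups. Genes absent from the other cells, such as Try10 (19 tip reads against 0), entered this median only through tip reads. Of the 16, 14 were on the higher side, and tip cells were the higher in every plate for 8.

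Per kilobase of exon (GENCODE M21), the enzymes of the tip cells were ranked by level. Ctrb1 (5826 ± 2697 CPM per kb, SD over 4 plates), Cpa1 (5548 ± 1808) and Clps (5022 ± 2301) did not differ beyond their spread. Pnliprp1 (2382 ± 587) followed, and then Spink1 (581 ± 385), Cela1 (464 ± 179) and Cel (385 ± 74.3), whose values overlapped. Among the factors Xbp1 stood at 296 ± 88.4 CPM per kb, Ptf1a at 128 ± 49.6 and Rbpjl at 123 ± 25.2, the last pair within their spread. Bhlha15 (31.2 ± 7.17) and Gata4 (28.4 ± 6.66) overlapped, and Nr5a2 was lower at 16.7 ± 1.5 CPM per kb.

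**Figure D1:**
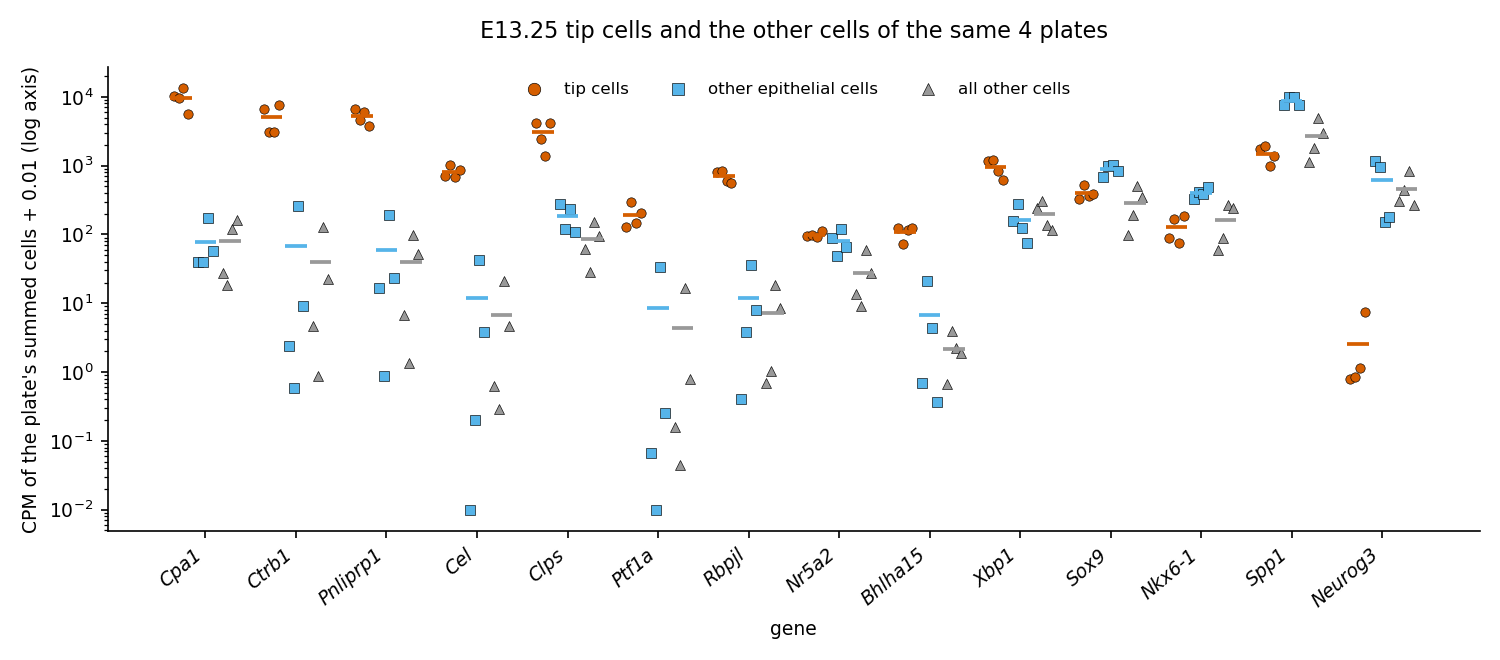
CPM of the summed tip cells (circles), other epithelial cells (squares) and all other cells (triangles) of each of the 4 E13.25 plates for 14 genes, on a log axis after adding 0.01, with horizontal lines at the mean. Enzymes and Rbpjl of tip cells lie far above the other cells of every plate, the tip values of Nr5a2 lie among those of the epithelial cells, and Spp1 and Nkx6-1 are below the epithelial cells.

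Genes that mark the shared progenitor state were mixed. Of 22 listed, 3 were higher and 1 lower, with a median log2 difference of 1.03. Myc, a growth regulator, had 832, 486, 369 and 223 CPM in tip cells and 111, 40.3, 88.1 and 78.9 CPM in the others (log2 difference 2.60, SE 0.39, edgeR adjusted p = 0.0241), and Hnf4a, a factor of gut endoderm, 101, 83.7, 82.1 and 76.6 CPM against 17.2, 11.6, 30.6 and 26.2 CPM (log2 difference 2.18, SE 0.37, edgeR adjusted p = 0.031). For both, the tip values lay above each value of the other cells. Sox11 was lower (log2 difference -2.20, edgeR adjusted p = 0.0265). Pdx1, the master factor of the pancreas, had 115, 158, 152 and 77.4 CPM against 10.8, 9.65, 52.8 and 69.7 CPM and did not pass (log2 difference 2.41, edgeR adjusted p = 0.13), though the tip value was the larger in each plate. Sox9 had 327, 530.0, 360.0 and 381 CPM against 97.2, 194, 511 and 344 CPM (log2 difference 0.80, SE 0.41, edgeR adjusted p = 0.268) and Nkx6-1 89, 167, 74.4 and 185 CPM against 60.1, 87.8, 264 and 243 CPM (log2 difference -0.08, SE 0.47, edgeR adjusted p = 0.935). These groups overlapped, and the other cells held more epithelial cells in plates 3 and 4 than in plates 1 and 2 (30 and 22 against 14 and 10). The sign of the Nkx6-1 difference changed with the settings listed in the closing section.

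Of 19 trunk and duct genes tested, 2 were higher and 3 lower, and the median log2 difference was -0.59, close to that of all genes. Clu, a secreted chaperone, had 684, 784, 753 and 772 CPM in tip cells against 142, 105, 301 and 303 CPM (log2 difference 2.04, SE 0.31, edgeR adjusted p = 0.0252), and Anxa4 was the other higher gene (1.74, edgeR adjusted p = 0.0477). Krt7, a duct keratin, had 103, 223, 199 and 216 CPM against 246, 359, 662 and 667 CPM (log2 difference -1.24, SE 0.22, edgeR adjusted p = 0.0334). Each plate had less Krt7 in tip than in other cells, although the highest tip plate lay close to the lowest plate of the others. Spp1, osteopontin, which is strong in the trunk, had 1723, 1902, 982 and 1361 CPM against 1117, 1811, 4974 and 2960.1 CPM (log2 difference -0.59, SE 0.49, edgeR adjusted p = 0.487), and its sign differed between plates.

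Few signalling genes were called. Of 20 Notch pathway genes 1 was higher and 3 lower. Notch1, a receptor, had 164, 208, 161 and 132 CPM against 84, 77.8, 105 and 71.4 CPM (log2 difference 1.06, SE 0.20, edgeR adjusted p = 0.0406), whereas the receptor gene Notch2 (75.5, 35.5, 35.6 and 40 against 335, 132, 103 and 96.4 CPM, log2 difference -1.62, edgeR adjusted p = 0.0221), the effector Hey2 (-8.76, edgeR adjusted p = 0.00842) and the glycosyltransferase gene Mfng (-7.44, edgeR adjusted p = 0.0334) were lower. For both receptors the 2 groups did not overlap. Against only the other epithelial cells, 0 of 18 tested Notch genes were called, 9 were on each side and the median log2 difference was 0.03. Of 24 FGF and Wnt genes, the nuclear effector Lef1 was lower (-8.34, edgeR adjusted p = 0.0163) and 23 did not pass, among them the receptor genes Fgfr2 (-0.92, edgeR adjusted p = 0.217) and Fgfr4 (0.49, edgeR adjusted p = 0.565). Endocrine genes were near the floor. Of 19 tested, 13 were lower, led by Isl1 (0.14, 0.0701, 0.121 and 0.0806 against 101, 62.3, 137 and 166 CPM, log2 difference -10.01, edgeR adjusted p = 0.000906) and Pax4 (-9.65, edgeR adjusted p = 0.00122). Neurog3, the inducer of endocrine fate, had 0.795, 0.841, 1.13 and 7.54 CPM against 304, 448, 823 and 269 CPM (log2 difference -8.05, SE 0.94, edgeR adjusted p = 0.0126). The highest tip value was that of plate 4, where 1 member had 266 CPM of Neurog3 and 837 CPM of Nkx6-1.

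Genes of protein export were higher in part. Of 30 listed for the endoplasmic reticulum, 12 were called higher and none lower, with a median log2 difference of 0.57. The co-chaperone gene Dnajc3 had 365, 484, 461 and 528 CPM against 129, 243, 202 and 174 CPM (log2 difference 1.41, SE 0.16, edgeR adjusted p = 0.0113), and Sdf2l1 (1.79, edgeR adjusted p = 0.0164), Ssr2 (1.36, edgeR adjusted p = 0.0118), a part of the translocon, and Hsp90b1 (0.70, edgeR adjusted p = 0.0325) were among the others. The chaperone gene Hspa5 did not pass (1917, 1598, 2502 and 1981 against 1434, 1391, 1555 and 1301 CPM, log2 difference 0.56, edgeR adjusted p = 0.0647). Of 24 ribosome biogenesis genes, 7 were higher and none lower, with a median of 0.80. Ncl, nucleolin, had 1194, 1501, 1724 and 1483 CPM against 565, 595, 711 and 611 CPM (log2 difference 1.33, SE 0.12, edgeR adjusted p = 0.00606), and the pseudouridine synthase gene Dkc1 had 297, 271, 352 and 319 CPM against 61.8, 118, 104 and 78.6 CPM (log2 difference 1.90, SE 0.22, edgeR adjusted p = 0.0124). Both were higher in each tip plate than in any plate of the others. Epithelial genes were higher in 7 of 24 and lower in none, among them the adhesion genes Epcam (1.90, edgeR adjusted p = 0.0457) and Cdh1 (2.45, edgeR adjusted p = 0.0389) and the claudin gene Cldn10 (3.17, edgeR adjusted p = 0.0186). Against only the other epithelial cells, the second comparison below, 0 of 23 tested were called and the median log2 difference was -0.06. The list summed to 7431 to 8823 CPM per plate in tip cells and 9129 to 10431 CPM in those cells.

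Immediate early genes, which respond quickly to stimuli and to handling of cells, were lower in 9 of 20, and 1, Myc, was higher. Fos had 298, 492, 406 and 424 CPM in tip cells and 1190.2, 1058, 747 and 1284 CPM in the others (log2 difference -1.31, SE 0.24, edgeR adjusted p = 0.0375), and Jun 350.1, 464, 401 and 379 CPM against 960.5, 777, 948 and 1007 CPM (log2 difference -1.13, SE 0.18, edgeR adjusted p = 0.0263). All tip plates lay below all plates of the others. The summed level of the 20 genes was 2248 to 3326 CPM in tip and 4663 to 6219 CPM in other cells, and its part in other results was not tested. Few cell cycle genes were called. Of 26 S phase genes 2, Tyms (1.03, edgeR adjusted p = 0.0324) and Ung (1.46, edgeR adjusted p = 0.0343), were higher, and of 26 G2 and M genes edgeR called 0 (6 at an unadjusted p under 0.05) and DESeq2 3. Mki67 stood at 287, 28.3, 301 and 143 CPM against 148, 104, 234 and 257 CPM (log2 difference -0.25, SE 0.51, edgeR adjusted p = 0.791), the tip value being low in plate 2. It reached 50 CPM in 23 of the 50 tip cells and in 35 of 76 other epithelial cells.

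Markers of other cell types were summed per plate. The 20 mesenchyme genes summed to 334 to 628 CPM per plate against 3428 to 9561 CPM in the others, and 15 were called lower. The 12 red cell genes summed to 8.48 to 165 CPM against 5461 to 104652 CPM, and 9 were lower. Endothelial genes summed to 28.6 to 81 against 21.7 to 38.9 CPM with Cdh5 and Tek at 0 reads in tip cells, and leukocyte genes to 17.5 to 42.6 against 16.3 to 32.9 CPM with 4 of 12 at 0. Mesothelial genes summed to 44.6 to 90.6 against 194 to 626 CPM with 6 of 9 tested lower, and neural crest and neuron genes to 83.5 to 223 against 154 to 291 CPM with 4 of 10 lower. These sums rest on few genes. In tip cells 1 endothelial gene (Egfl7), 1 leukocyte gene (C1qa) and 1 mesothelial gene had a mean of at least 10 CPM. The mesenchyme list had 2, Vim and Pdgfrb. The sum of the 14 gut and liver epithelium genes went the other way. It was 1482 to 2008 CPM per plate in tip cells, 105 to 578 CPM in the others and 371 to 761 CPM in the other epithelial cells. Only 3 of the 14 genes had a mean of at least 10 CPM in tip cells, and Ttr held most of the sum. Against all others 5 tested genes were on the higher side and 3 on the lower. Of 8 tested against all others 1 was called, Ttr, the gene of the carrier protein transthyretin (1434, 1399.6, 1011 and 1704 against 189.9, 52.8, 378 and 313 CPM, log2 difference 2.93, edgeR adjusted p = 0.0389). Afp, the alpha-fetoprotein gene, had 292, 391, 325 and 197 against 4.49, 10, 69.6 and 53.3 CPM (log2 difference 3.93, edgeR adjusted p = 0.066) and did not pass, and the intestinal genes Cdx1 and Fabp2 were at 0 reads in tip cells. The genes furthest below the others were the matrix proteoglycan gene Ogn, with 2 reads in tip cells (ratio of others to tip 2146, counting interval 594 to 17718), Mical1 with 1 read (2936, 527 to 115995), Adrb3 with 2 (1467, 406 to 12111), Emilin3 with 3 (1042, 357 to 5054) and the embryonic globin Hbb-bh1 with 2 (896, 248 to 7397). Lum (-9.79, edgeR adjusted p = 0.00471), Osr2 (-9.79, edgeR adjusted p = 0.00566), Ntm (-9.76, edgeR adjusted p = 0.00471) and Gdap1l1 (-9.85, edgeR adjusted p = 0.007) completed the 10. Among the 10 furthest above were, beside the enzymes, the phospholipase gene Pla1a (181, 144, 199 and 309 against 0.117, 0.0791, 4.65 and 2.02 CPM, log2 difference 8.46, edgeR adjusted p = 0.024), the serpin gene Serpini2 (277, 38.3, 221 and 99 CPM, log2 difference 8.01, edgeR adjusted p = 0.0333) and the disulfide isomerase family gene Erp27 (101, 1.05, 13.1 and 9.15 CPM, log2 difference 8.60, edgeR adjusted p = 0.0244). The highest tip value of Erp27 was that of plate 1 and the lowest that of plate 2.

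The count of calls depended on each plate. Without plate 1, 2, 3 or 4 the calls numbered 150, 375, 252 and 286. Of the 13 alternatives, Cela1, Erp27 and Serpini2 lost their call under 6, Rbpjl, Pnliprp1 and Cela3b under 5, Ctrb1, Cel, Spink1, Gata4, Myc and Pla1a under 4, and Clps and Bhlha15 under 2. Nr5a2 gained a call under 4 and Ptf1a under 3.

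The 50 cells differed widely among themselves, as the plot of levels in single tip cells shows. Cpa1 ran from 1063 to 48900.1 CPM with a median of 5349. Ctrb1 ran from 0.344 to 27345 CPM, with a median of 1788. Ptf1a had a median of 115 CPM and was at 0 reads in 9 cells, Rbpjl a median of 435 CPM and 0 reads in 2, and Bhlha15 0 reads in 18. The progenitor factor Sox9 reached 50 CPM in 49 of 50 cells, with a median of 269.7 CPM. Ptf1a and Sox9 both reached 50 CPM in 34 cells (7, 3, 14 and 10 in plates 1 to 4), Rbpjl and Sox9 in 44 and Ptf1a and Nkx6-1 in 22. Neurog3 reached it in 2.

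**Figure D2:**
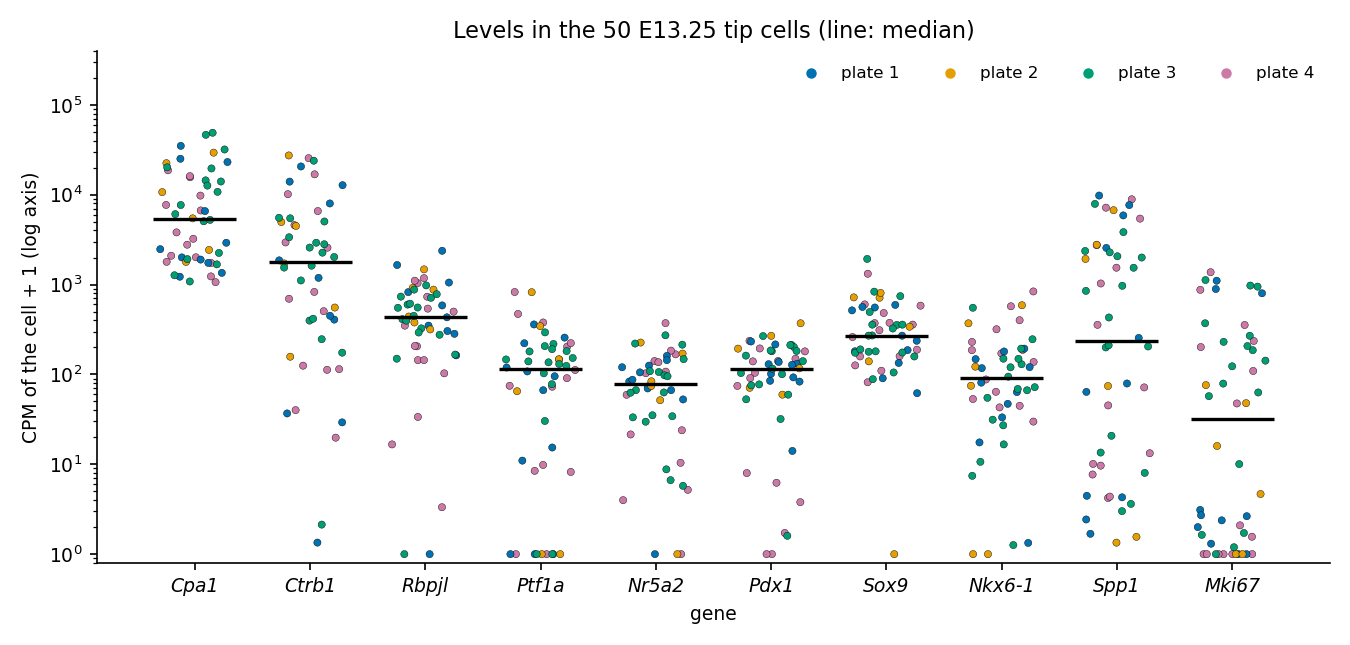
CPM of 10 genes in each of the 50 tip cells, on a log axis after adding 1, with 1 point per cell coloured by plate and a line at the median. The quartiles lie at 162 and 509.8 CPM for Sox9 and at 399 and 5015 CPM for Ctrb1.

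Ctrb1 and Spp1 ran against each other. At a level of 1000 CPM, chosen after the values were seen, 24 cells were over it for Ctrb1 alone, 14 for Spp1 alone, 6 for both and 6 for neither. The Ctrb1 cells numbered 6, 2, 9 and 7 in plates 1 to 4 and the Spp1 cells 4, 1, 3 and 6, so each plate held both. Cells over it for Spp1 alone had medians of 119 CPM of Ctrb1, 5648 of Spp1, 2452 of Cpa1, 155 of Rbpjl, 8.71 of Ptf1a, 426 of Sox9 and 211 of Nkx6-1. Those over it for Ctrb1 alone had medians of 5247 CPM of Ctrb1, 10.7 of Spp1, 7178 of Cpa1, 671 of Rbpjl, 146 of Ptf1a, 182 of Sox9 and 54.3 of Nkx6-1. The first class had higher Sox9 and Nkx6-1 medians, and the second higher medians of Rbpjl and Ptf1a. The classes were picked on the values and were not tested, and their median depths were 1008310 and 1788170 reads. Across the 50 cells the Spearman correlation of Ctrb1 with Spp1 was -0.59, and -0.60 with plate means removed, that of Rbpjl with Spp1 -0.47, and that of Ptf1a with Sox9 -0.31. The cells share plates and their values share a total, so these are descriptions.

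**Figure D3:**
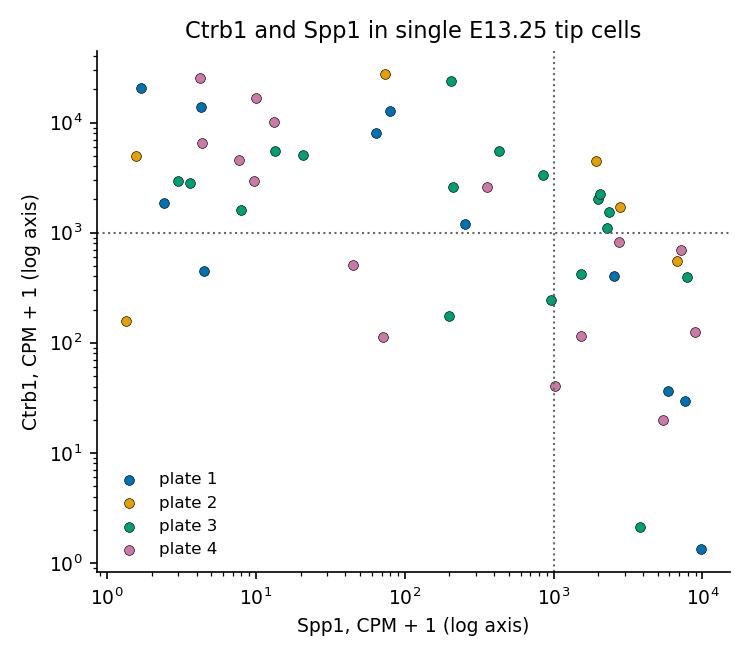
CPM of Ctrb1 against that of Spp1 in each of the 50 tip cells, both on log axes after adding 1, coloured by plate, with dotted lines at 1000 CPM. The 24 cells at upper left and the 14 at lower right come from every plate, and 6 cells lie at upper right.

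Levels of Cpa1, the gene that chose the cells, were set beside those of 7652 genes over the 50 cells, whose Cpa1 range the limit cuts. The highest positive Spearman correlations were with Rbp4 (0.56), Ffar4 (0.56), Fbxl5 (0.48), Uri1 (0.48) and Mrm1 (0.45, and 0.29 with plate means removed). The most negative, named after their values were seen, were with Zfp81 (-0.57), Slx4ip (-0.49), Brd2 (-0.49), Usp39 (-0.48) and Lsm8 (-0.46). The correlations were 0.37 with Rbpjl, 0.35 with Ctrb1, 0.098 with Ptf1a and 0.054 with the cell's reads.

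The second comparison took the nearest cells on the same plates, 14, 10, 30 and 22 epithelial cells with at least 50 CPM of Epcam, under 1000 CPM of Cpa1 and the same limits on Col3a1 and Neurod1. It asked how tip cells differed from these other epithelial cells. Of the 76 cells, 26 (34.2%) reached 50 CPM of Neurog3, against 2 of the 50 tip cells. Endocrine genes summed to 207 to 1911 CPM per plate in them and 24.3 to 95.9 CPM in tip cells. Levels in the epithelial cells are thus averages that include cells with Neurog3. Tip cells had more of the secreted protein genes Serpina6, Gc and Ttr, of Xbp1, Reep5 and Gamt, and less of Spp1, Anxa2 and Atf3. These were the 9 calls among 16954 genes (0.0531%), 6 higher (0.0354%) and 3 lower (0.0177%), each with an edgeR adjusted p of 0.0259, while 1997 (11.8%) had an unadjusted p under 0.05. The median log2 difference over the tested genes was -0.09, and tip cells were the higher in every plate for 9.55% of genes and the lower for 12.7%. The 9 calls were lost without any 1 of the 4 plates, where edgeR made 0 calls each time and 1414 to 1835 genes had an unadjusted p under 0.05. DESeq2 made 1711 calls, which included the same 9.

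Serpina6, which encodes the corticosteroid-binding globulin, had 4809, 11159, 8280.3 and 8049 CPM in tip cells and 94.1, 161, 308 and 325 CPM in the other epithelial cells of plates 1 to 4 (log2 difference 5.37, SE 0.30). Its lowest tip plate, plate 1, still lay above each plate of the others. Gc, the vitamin D-binding protein, had 1726, 1768, 1678 and 1963 CPM against 203, 228, 280.0 and 376 CPM (log2 difference 2.83, SE 0.15), and Ttr, transthyretin, 1434, 1399.6, 1011 and 1704 CPM against 231, 229, 243 and 438 CPM (log2 difference 2.39, SE 0.16). Xbp1 stood at 158, 281, 126 and 75.6 CPM in the epithelial cells, below each of its tip values given above (log2 difference 2.77, SE 0.21). Reep5, which shapes the endoplasmic reticulum, had 648 ± 78.6 CPM against 106 ± 25.4 (SD, n = 4, log2 difference 2.71, SE 0.20), and Gamt, an enzyme of creatine synthesis, 475 ± 60.6 against 105 ± 8.5 CPM (log2 difference 2.25, SE 0.16). In all 6 genes the 2 groups of plates did not overlap.

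Spp1 had 7665, 9941, 9888 and 7668 CPM in the epithelial cells and 1723, 1902, 982 and 1361 CPM in tip cells (log2 difference -2.51, SE 0.18), with each tip plate below every other plate. Anxa2, a membrane-binding annexin, had 29.3, 18, 10.2 and 11.1 CPM in tip cells against 358, 364, 382 and 285 CPM (log2 difference -4.39, SE 0.31). Atf3, an immediate early factor, had 2.57, 0.0701, 4.27 and 25.7 CPM against 67.5, 5.08, 297 and 808 CPM (log2 difference -5.26, SE 0.35), and its groups overlapped, since plate 2 of the epithelial cells was low while each plate differed the same way.

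The tip factors and enzymes were far apart in level here too, without passing. Ctrb1 had 2.34, 0.581, 260.5 and 9.16 CPM in the other epithelial cells (log2 difference 9.95, SE 1.98, edgeR adjusted p = 0.195) and Clps 279.9, 119.9, 236 and 108 CPM (log2 difference 4.11, SE 0.48, edgeR adjusted p = 0.104). Each tip value given above was larger than each of these, and the epithelial value of Ctrb1 was highest in plate 3. Rbpjl had 0.4, 3.82, 35.8 and 7.89 CPM (log2 difference 7.07, SE 1.23, edgeR adjusted p = 0.167) and Ptf1a 0.0571, 0, 34 and 0.246 CPM (log2 difference 9.10, SE 2.27, edgeR adjusted p = 0.243). All 11 early enzyme genes tested were on the higher side, 7 in every plate. Genes nearly absent from the epithelial cells, such as Cpb1 (941 reads in tip cells and 1 in theirs), entered the test only through tip reads. Their direction was thus set by the low-count filter. Nr5a2 had 90, 49.4, 119 and 65.4 CPM in the epithelial cells (log2 difference 0.43, SE 0.32, edgeR adjusted p = 0.665) and overlapped with its tip values, and Pdx1 did so as well (0.74, edgeR adjusted p = 0.55). Sox9 had 675, 974, 1021 and 846 CPM (log2 difference -1.07, SE 0.14, edgeR adjusted p = 0.12) and Nkx6-1 332, 417, 387 and 481 CPM (log2 difference -1.67, SE 0.23, edgeR adjusted p = 0.13) in the epithelial cells. Tip values of these progenitor factors were the lower in 4 of 4 plates with no overlap, which did not pass the test. Of 18 trunk and duct genes 1, Spp1, was lower, and the median was -1.36.

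Shares of single cells were set side by side at equal depth. After thinning to 100000 reads, at least 5 reads of Ptf1a were found in 72% of tip cells and 3.95% of other epithelial cells, of Ctrb1 in 90% and 7.89%, and of Nr5a2 in 66% and 47.4%. For Sox9 the shares were 98% and 97.4%, for Nkx6-1 72% and 90.8%, for Spp1 62% and 94.7% and for Myc 86% and 32.9%. The median depth before thinning was 1726800 and 1412750 reads. With all reads and at least 1 read, Ptf1a was found in 82% and 26.3%, and Ctrb1 in 100% and 81.6%. In the 158 cells with high Col3a1 and under 1000 CPM of Cpa1 the thinned shares were 0% for Ptf1a and 1.90% for Ctrb1.

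The third comparison took the E15.25 cells that passed the same rule, 40 in tip 1, 27 in tip 2 and 29 in trunk 2, and asked how cells chosen alike differ between the ages. By their titles tip 2 and trunk 2 come from the same bud, and the test counts them as separate plates, so its p-values can be too small. The later cells had more of 5 early and 12 late digestive enzyme and granule protein genes, more Bhlha15, and more of 10 immediate early genes, and less Sox9, Nkx6-1, Vim and Dlk1. Of 15074 genes, 372 (2.47%) had an edgeR adjusted p under 0.05. Of these 248 (1.65%) had the larger level in the later cells and 124 (0.823%) the smaller. The median log2 difference was -0.06. The plates of the ages did not overlap for 26.3% of genes, with all later plates above for 6.05% and below for 20.2%. A plate's CPM of the 12 early enzymes together was 16830.2 to 29379.8 at E13.25 and 130339 to 150220 at E15.25. Ratios of CPM are lower than the fitted differences, which use TMM scaling.

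Ctrb1 stood at 67135, 57311 and 55439 CPM in E15.25 tip 1, tip 2 and trunk 2 and at 5115 ± 2368 CPM (SD, n = 4) in the E13.25 tip cells (log2 difference 4.02, SE 0.36, edgeR adjusted p = 0.00355). Pnliprp1 had 51582, 50123 and 44292 CPM against 5294 ± 1306 (log2 difference 3.67, SE 0.19, edgeR adjusted p = 0.000355) and Clps 15173, 18086 and 14951 CPM against 3069 ± 1406 (log2 difference 2.86, SE 0.37, edgeR adjusted p = 0.0104). The 3 later plates were close to each other in these genes and lay above the E13.25 plates. Cel, at 3187, 3245 and 2857 CPM, was higher as well (2.39, edgeR adjusted p = 0.00243). Cpa1, which chose the cells, stood at 19385, 11998 and 17248 CPM. The call of Clps was lost under 3 of 17 alternatives. Of the 12 early enzyme genes 5 were higher, with a median log2 difference of 1.97.

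Of 22 late enzyme and granule genes tested, 12 were higher, none lower, and the median was 5.13. The trypsinogen Prss1 had 0.374, 0, 0.0805 and 0.887 CPM in the E13.25 plates and 1189, 1334 and 1360.1 CPM at E15.25 (log2 difference 12.36, edgeR adjusted p = 0.00186). Try10 had 0.234, 0.21, 0.161 and 0.121 CPM against 981, 683 and 1108 CPM (12.80, edgeR adjusted p = 3.18e-06), and Amy2b, an amylase, 3.27, 17.7, 2.76 and 31.6 CPM against 1856, 2867 and 1564 CPM (7.69, edgeR adjusted p = 0.0113). These genes were far lower in each E13.25 plate than in any later plate. With no read at E13.25, Prss3 was at least 10597-fold higher, the water channel gene Aqp8 at least 4425-fold and Zg16, a granule lectin, at least 936-fold, against a floor of 3 reads over the group. Pdia2 (2 reads, ratio 3409, interval 943 to 28156) and Aqp12 (2 reads, 2544, 704 to 21009) were also among the 10 furthest above, with Slc26a9 (11.07, edgeR adjusted p = 0.00171), Amy2a5 (10.04, edgeR adjusted p = 0.00655) and Rnase1 (9.14, edgeR adjusted p = 0.0328). Rab3d, a granule GTPase, was higher too (3.43, edgeR adjusted p = 0.0441).

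Of 11 acinar factors 3 were higher. Bhlha15 had 632, 522 and 343 CPM in the later plates against 109 ± 25 (log2 difference 2.67, SE 0.28, edgeR adjusted p = 0.00585) and Creb3l1 73.1, 39.7 and 89.7 against 16.2 ± 7.68 (log2 difference 2.51, SE 0.50, edgeR adjusted p = 0.0445). Both sets of plates did not overlap. Rbpjl was at the limit of the test (1013, 1589 and 881 against 708 ± 144 CPM, log2 difference 1.18, edgeR adjusted p = 0.0495) and lost its call under 14 of 17 alternatives. Ptf1a (412, 261 and 305 CPM, log2 difference 1.21, edgeR adjusted p = 0.109), Nr5a2 (0.52, edgeR adjusted p = 0.232) and Gata4 (1.07, edgeR adjusted p = 0.0801) did not pass. Of 30 endoplasmic reticulum genes 9 were higher and none lower, the largest being the quality control genes Sel1l (647 ± 115 against 152 ± 40.3 CPM, log2 difference 2.56, edgeR adjusted p = 0.00355), Herpud1 (2.51, edgeR adjusted p = 0.014) and Edem1 (2.39, edgeR adjusted p = 0.0321). Xbp1 itself did not pass (0.50, edgeR adjusted p = 0.367).

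Progenitor genes pointed the other way, with 2 of 21 lower, none higher and a median of -0.95. Sox9 had 56.7, 113 and 69.4 CPM at E15.25 and 327, 530.0, 360.0 and 381 CPM at E13.25 (log2 difference -1.87, SE 0.30, edgeR adjusted p = 0.0266). Nkx6-1 had 19.3, 18.6 and 18 CPM against 89, 167, 74.4 and 185 CPM (log2 difference -2.33, SE 0.40, edgeR adjusted p = 0.0323). No later plate reached the lowest E13.25 plate in either gene, and the calls of Sox9 and Nkx6-1 were lost under 5 and 7 of 17 alternatives. Pdx1, at 33.1, 22.2 and 37.3 CPM, did not pass (log2 difference -1.56, SE 0.34, edgeR adjusted p = 0.0558), and neither did Myc (-0.92, edgeR adjusted p = 0.295) or Spp1 (-0.97, edgeR adjusted p = 0.473). By cells, Sox9 reached 50 CPM in 49 of 50 E13.25 tip cells and 52 of 96 later cells, Nkx6-1 in 35 of 50 and 13 of 96, and Ctrb1 reached 1000 CPM in 30 of 50 and 96 of 96. Spp1 reached 1000 CPM in 16 of the 96, and these 16 also had 1000 CPM of Ctrb1.

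Of 22 tested genes of the FGF and Wnt list 2 were lower and none higher. The FGF receptor gene Fgfr4 had 3.43, 6.8 and 9.73 CPM against 41.6, 112, 52.9 and 74.1 CPM (log2 difference -2.95, SE 0.55, edgeR adjusted p = 0.0374) and the Wnt receptor gene Fzd2 7.35, 6.02 and 6.3 against 68.8, 79.5, 50.9 and 56.3 CPM (log2 difference -2.82, SE 0.35, edgeR adjusted p = 0.00999). Neither pair of groups overlapped. Of 18 Notch genes the ligand genes Jag1 (-2.30, edgeR adjusted p = 0.0455) and Dlk1 (53.5 ± 9.92 against 286 ± 58 CPM, log2 difference -1.95, edgeR adjusted p = 0.0101) were lower. Vim, the intermediate filament gene vimentin and a member of the mesenchyme list, stood at 54.3 ± 23.8 CPM against 460.1 ± 113 (log2 difference -2.63, SE 0.38, edgeR adjusted p = 0.0169). Among the 10 furthest below were the actin-bundling gene Fscn1 (-5.89, edgeR adjusted p = 0.00355), the actin-binding gene Dbn1 (-6.10, edgeR adjusted p = 0.013), the gap junction gene Gjc1 (-5.69, edgeR adjusted p = 0.00628), the Wnt gene Wnt7b (-4.56, edgeR adjusted p = 0.00669) and Rimklb (-6.33, edgeR adjusted p = 0.0256). The serpins Serpina1b (-4.81, edgeR adjusted p = 0.00999) and Serpina1e (-5.25, edgeR adjusted p = 0.013), which can share reads, were also among them, with Slc25a14, Pik3ip1 and Cand2. Pik3ip1 lost its call under 13 of 17 alternatives, Rimklb under 7, Slc25a14 under 5 and the rest of the 10 under at most 4.

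**Figure D4:**
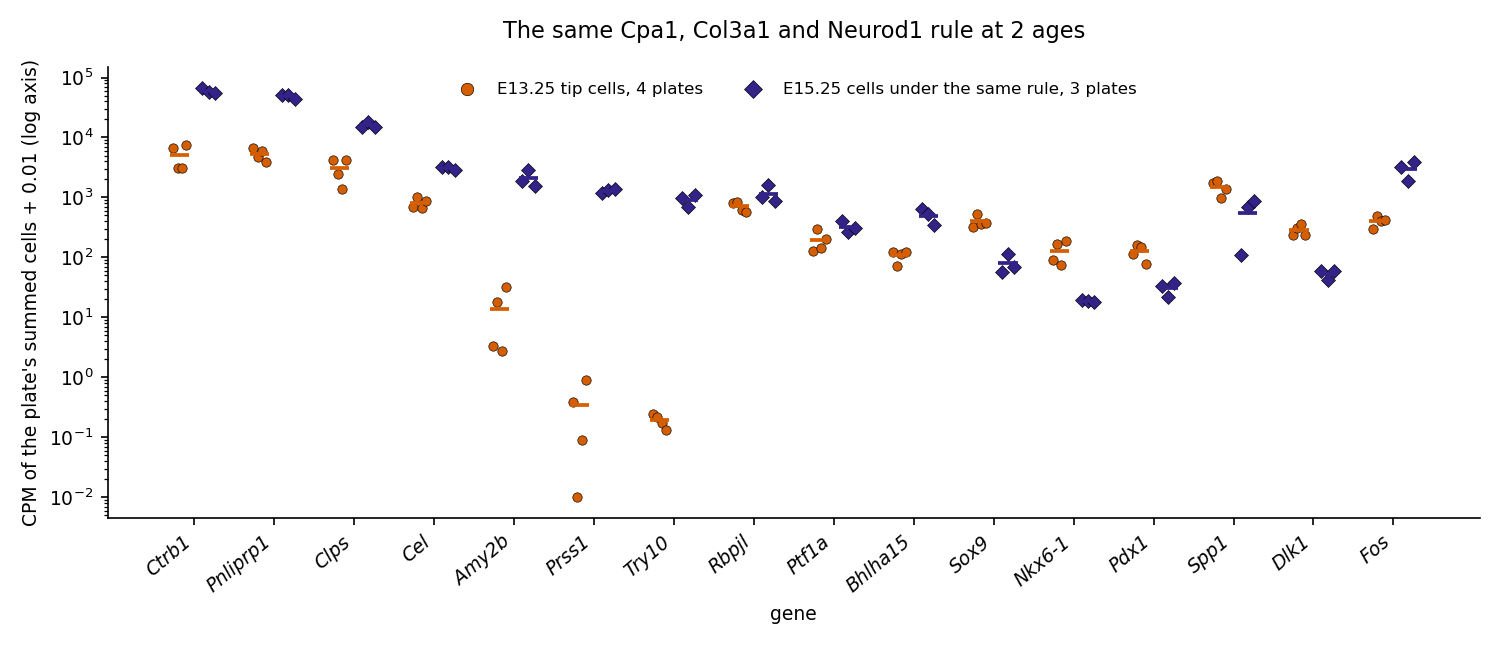
CPM of the summed cells under the same rule on each plate, 4 at E13.25 (circles) and 3 at E15.25 (diamonds), for 16 genes, on a log axis after adding 0.01, with lines at the mean. The enzymes shown are higher in each later plate, and Sox9, Nkx6-1 and Dlk1 are lower in each later plate.

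Other measures moved with age. Of 20 immediate early genes 10 were higher at E15.25 and none lower, with a median log2 difference of 2.61. Fos had 3179, 1875 and 3881 CPM against 298, 492, 406 and 424 CPM (log2 difference 3.34, SE 0.29, edgeR adjusted p = 0.00334). The median share of reads not aligned in tip cells was 26.5%, 31.3%, 28.1% and 46.1% in plates 1 to 4, and 46.1%, 46.8% and 42.2% in E15.25 tip 1, tip 2 and trunk 2. The median mitochondrial share was 4.25% at E13.25 and 7.07% at E15.25. Red cell genes summed to 8.48 to 165 CPM and 406 to 2421 CPM, and endocrine genes to 24.3 to 95.9 CPM and 155 to 416 CPM with the insulin gene Ins2 at 0 reads at E13.25. Of 16 mesenchyme genes tested, 13 had a difference toward the later cells, with a median log2 difference of 2.34, and 9 were above in each later plate. Col1a1, a collagen gene, was called higher (16.6, 33.5 and 25.6 against 5.8, 3.02, 2.7 and 1.49 CPM, log2 difference 3.43, edgeR adjusted p = 0.0346) and Vim lower. Vim held most of the list's reads at E13.25, and the list summed to 334 to 628 CPM there and 117 to 304 CPM at E15.25. The part of these in the age differences was not tested. With plate 4, the E13.25 plate closest in its unaligned share, alone against E15.25, a fit added after the data were seen whose spread comes from the E15.25 plates alone and is assumed to hold for plate 4, 68 genes were called. The calls numbered 71 without tip 1, and 90 and 64 without tip 2 and without trunk 2, which leaves 1 plate per bud, 176 without E13.25 plate 3, and 655 with equal weight per cell. The calls of Ctrb1, Pnliprp1, Cel, Prss1, Amy2b, Try10, Aqp8 and Prss3 held in all 17 alternatives, that fit included.

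Reads on genes were set against those on ERCC spike-in transcripts. The quality filter used reads on genes, with the same limit for tip and other cells. The median log2 ratio of reads on genes to reads on ERCC spike-ins was 6.25, 2.08, 2.75 and 2.45 in the tip cells of plates 1 to 4 and 5.09, 1.40, 1.71 and 1.85 in the other cells. Each plate had more reads on genes per spike-in read in tip cells, by 1.17, 0.68, 1.04 and 0.60. The mean difference was 0.87 (SD 0.27, n = 4), and an exact two-sided permutation test over plates gave p = 0.12, the smallest that 4 plates allow. Against the other epithelial cells the difference was 0.40 (SD 0.33), higher in 4 of 4 plates.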

How the data were processed

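The deposited values are whole read counts per gene and cell from the authors, 1 table per plate. Per the submitters' processing notes, GSNAP, HTSeq 0.5.3p3 and mm10 were used. Counts on 46078 mouse genes were used, with 92 ERCC spike-ins kept apart. HTSeq's summary lines stayed out of library sizes; in tip cells they held 7.40% (no feature), 4.36% (ambiguous) and 33.3% (not aligned) of all reads.

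Cells with at least 100000 gene reads, 1500 genes and at most 20% mitochondrial reads were kept, 601 of 672. No doublet caller was run on these sorted single cells. Reads were summed per plate and group and tested with edgeR 4.0.16 (R 4.3.3; TMM, its default filter on low counts, quasi-likelihood F test, Benjamini-Hochberg adjustment). The plate was a block within E13.25, since both groups come from the same plate. SE are of the log2 difference; pooled CPM per plate use summed reads. DESeq2 1.42.0 was the alternative test. Python 3.11.15 with pandas 2.3.3, numpy 2.4.6, scipy 1.17.1 and matplotlib 3.10.9 did the rest. The scripts were tested on simulated data.

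The members and gene lists were chosen with earlier results of these data known. Genes named were members of the pancreatic, Notch and FGF or Wnt lists, called or abundant members of other lists, and, per comparison and direction, up to 10 called genes with the largest differences that moved alike in every plate (for ages, without overlap) at a mean of at least 20 CPM; the 5 genes most correlated with Cpa1 were added. Alternatives covered scaling, the low-count filter, the Cpa1 and Epcam limits, group size, gene-rich cells, the block and each plate left out. Some paralogs (trypsinogens, amylases, elastases, Serpina1, globins) can share reads. Results of some listed genes are not reported here, though list counts and medians include them.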

Additional observations from a re-analysis of the deposited data

Results flagged for a closer look

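Among 34 groups of 4 plates examined, 3 had 1 plate far from the other plates, and chance alone marks about 1 group in 20. Ptf1a in the other E13.25 cells reached 16.7 CPM in plate 3, and Ctrb1 in the same cells reached 130 CPM there. The 3 cells of plate 3 just under the Cpa1 limit held 96.4% of those Ptf1a reads and 85% of those Ctrb1 reads, and without them the levels were 0.641 and 20.8 CPM. Bhlha15 in tip cells was lowest in plate 2, at 71.9 CPM, the plate with 6 tip cells.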

How the results depend on the processing

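Against all other E13.25 cells the 1379 calls became 5817 with DESeq2's Wald test, 375 with at least 10 cells per plate and group (which leaves out plate 2), 909 with a Cpa1 limit of 2000 CPM, 2294 with no replicate block, and 150 to 375 with 1 plate left out. Against the other epithelial cells the 9 calls became 1711 with DESeq2, 23 with no filter on low counts, 17 with a Cpa1 limit of 500 CPM, 18 without the 5% most gene-rich cells, 110 with no replicate block, and 0 with at least 10 cells, with a limit of 2000 CPM and with any 1 plate left out. Between the ages the 372 calls became 1604 with DESeq2, 655 with equal weight per cell, 231 with a limit of 2000 CPM, 184 without the 5% most gene-rich cells, 64 with the E15.25 tip plates only, 68 with E13.25 plate 4 alone (added after the data were seen), and 64 to 321 with 1 plate left out. No paired fit between the ages was possible because no label ties plates across ages. Against all other cells the Mki67 difference (-0.25) was 0.25 with at least 10 cells and 0.11 with no replicate block, and -0.67 to 0.25 with 1 plate left out. The Nkx6-1 difference (-0.08) was 0.21 with equal weight per cell, 0.024 with a limit of 500 CPM, 0.013 without the 5% most gene-rich cells, and -0.46 to 0.43 with 1 plate left out. Between the ages Spp1 (-0.97) was 0.14 with a limit of 500 CPM and Myc (-0.92) was 0.13 with plate 4 alone. Other causes of these shifts were not tested. Over the named genes, 328 of 429 alternative values kept direction and call against all other cells, 296 of 375 against the epithelial cells and 532 of 629 between the ages. The spike-in difference was 0.77 to 0.96 with 1 plate left out.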

Other observations

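Outside the limits, 5 E13.25 cells reached 50 CPM of Ptf1a or Rbpjl. In plate 3 they had Cpa1 of 589, 718 and 915 CPM, and the first pair had Ctrb1 of 4424 and 3484 CPM. In plate 4, 1 cell had 4.07 CPM of Cpa1 with 93.6 CPM of Rbpjl and 5059 CPM of Spp1, and 1 had 3044 CPM of Cpa1 with 1412 CPM of Col3a1.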
